A study of Mus musculus with 2 samples.

Results

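The cells described here are type 2 conventional dendritic cells (cDC2) that carry Cd209a, from the immune infiltrate of osteosarcoma tumors grown in mice. They were chosen by their UMIs (unique molecular identifiers, each counting 1 captured RNA molecule): a member had at least 1 UMI of Flt3 and at least 1 of Cd209a, at most 1 UMI of Xcr1 and Clec9a together, at most 1 of Siglech, not both Ccr7 and Fscn1, and under 2% of its UMIs in S100a8 and S100a9. Of 19826 cells that passed quality filters in 2 libraries, 98 met the rule: 10 of 8557 in the control IgG library and 88 of 11269 in the anti-CD3L1 library. The levels of those 9 genes in the members are therefore set by the choice and are given as a description.

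Conventional dendritic cells arise from bone marrow progenitors under the cytokine FLT3L, whose receptor is the product of Flt3, take up antigen in tissues and present it to T cells. The branch called cDC1 depends on IRF8 and BATF3 and carries XCR1 and CLEC9A, whereas cDC2 rely more on IRF4 and KLF4 and present antigen mainly on MHC class II to CD4+ T cells. Cd209a encodes a mouse homologue of DC-SIGN, a C-type lectin that binds glycans, and is also found on dendritic cells that descend from monocytes. Zbtb46 encodes a transcription factor typical of conventional dendritic cells.

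The tumors came from 143B, a human osteosarcoma cell line, injected subcutaneously into the right flank of female nude mice aged 4 weeks. Nude mice lack a functional thymus and so most T cells, and both groups share this host and this tumor line. The animals received 10 mg/kg of human IgG1 isotype antibody (control IgG) or of anti-CD3L1, an antibody against the protein that Itpripl1 encodes, every 3 days for 4 doses. CD45+ cells from 3 tumors per group were enriched with magnetic beads and pooled into 1 library, so no replicate check exists and no test between the groups was possible.

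In all, 74850604 UMIs were counted under control IgG and 108246719 under anti-CD3L1. Kept cells had a median of 5526 and 8267 UMIs, 5487 and 479 of them were neutrophils by a rule on S100a8, S100a9 and Csf3r, and 26 kept barcodes occurred in both libraries, none of them a member's. The members were deeper than that: 10 had a median of 16436 UMIs (9603 to 22785) under control IgG and 88 had a median of 10615.5 (2367 to 34394) under anti-CD3L1, with median mitochondrial shares of 1.51% and 1.57%. Their UMIs summed to 154144 and 1064191, and levels below are UMIs of a gene per 1000000 UMIs of such a sum (CPM), so that 1 UMI weighs far more in the control IgG members. All intervals are exact 95% intervals and cover counting error alone. Where a gene had no UMI in a class, its ratio was set against 3 UMIs over that class (19.5 CPM in the control IgG members and 2.82 CPM in the anti-CD3L1 members) and is a bound.

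The sequences upstream of the lectin genes are shown because Cd209a, which chose the cells, was accompanied in them by its neighbor Cd209d and by Mgl2. Cd209a (chromosome 8, 3743397 to 3748984, minus strand) and Cd209d (chromosome 8, 3871824 to 3878555, minus strand) lie in a cluster of 7 Cd209 genes, and Mgl2 (chromosome 11, 70130329 to 70137550, plus strand) lies beside its paralog Clec10a (chromosome 11, 70156197 to 70170834, plus strand). These positions are from the GRCm38 annotation, which is not the build the submitters' notes name for the counts. Each line gives 300 bases from RefSeq on GRCm38.p6, 250 before to 50 after the start that table uses, which for Cd209d and Mgl2 is not the outer bound of the gene given above, read 5′ to 3′ on the gene's strand. Clec10a had no entry. Capitals mark matches on either strand to AGGAAGT, a motif of the myeloid factor PU.1, or to GGAANNGAA, a composite motif of ETS and IRF factors (TTCTCTTCC is a match on the opposite strand).
Cd209a, chr8:3748935-3749234, minus strand: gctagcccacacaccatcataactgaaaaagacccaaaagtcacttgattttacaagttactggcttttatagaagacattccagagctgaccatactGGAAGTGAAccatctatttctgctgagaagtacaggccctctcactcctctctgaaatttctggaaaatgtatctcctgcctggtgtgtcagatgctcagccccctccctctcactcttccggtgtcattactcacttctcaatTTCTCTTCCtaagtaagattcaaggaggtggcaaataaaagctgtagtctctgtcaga
Cd209d, chr8:3878450-3878749, minus strand: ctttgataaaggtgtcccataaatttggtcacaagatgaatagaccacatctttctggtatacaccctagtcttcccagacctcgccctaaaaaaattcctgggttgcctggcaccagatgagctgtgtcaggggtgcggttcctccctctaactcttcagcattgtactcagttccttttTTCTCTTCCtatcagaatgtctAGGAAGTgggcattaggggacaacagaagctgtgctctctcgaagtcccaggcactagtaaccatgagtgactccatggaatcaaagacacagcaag
Mgl2, chr11:70130107-70130406, plus strand: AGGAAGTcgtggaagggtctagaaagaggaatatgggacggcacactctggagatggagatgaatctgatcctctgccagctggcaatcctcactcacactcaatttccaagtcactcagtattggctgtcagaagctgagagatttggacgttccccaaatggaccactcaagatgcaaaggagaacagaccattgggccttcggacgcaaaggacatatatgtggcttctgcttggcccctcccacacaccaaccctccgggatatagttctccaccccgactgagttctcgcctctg
The Cd209a window held the composite motif at 152 and 8 bases before the start and no match to AGGAAGT. The Cd209d window held the composite motif 69 bases and AGGAAGT 47 bases before the start, and the Mgl2 window held AGGAAGT alone, at 250 bases. Among 32851 promoters of the same length, 9.35% held AGGAAGT and 8.24% held GGAANNGAA, so a match is a description of the letters and not a site.

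The label was first checked against the 5 markers given for these cells. Cd209a, used by the rule, stood at 506 CPM (interval 400.0 to 632) in the control IgG members and 404 CPM (367 to 444) in the anti-CD3L1 members. Flt3, also used, stood at 104 CPM (59.3 to 169) and 163 CPM (139 to 189). Tbc1d4, a Rab GTPase-activating protein that the rule did not use, stood at 234 CPM (164 to 323) and 244 CPM (216 to 276), against 10.8 CPM in Vcan monocytes and 14.2 CPM in NK cells of the anti-CD3L1 library. Tbc1d4 was near the same level in the members of both libraries, above the monocytes, and below the Ccr7 Fscn1 dendritic cells, which had 1514 CPM of Tbc1d4 and 202 CPM of Zbtb46 under anti-CD3L1. Zbtb46 stood at 51.9 CPM (22.4 to 102) and 105 CPM (86.7 to 127), against 4.1 CPM in the Vcan monocytes. NK cells, which are not dendritic cells, had 67.2 CPM of Zbtb46 and at least 1 UMI in 62 of 193 cells, and after thinning every cell to 2000 UMIs it was seen in 13.6% of members and 12.0% of NK cells. Zbtb46 therefore separated the members from monocytes but not, cell by cell at equal depth, from NK cells.

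Btla, an inhibitory receptor of the immunoglobulin superfamily, went against the label. It stood at 77.8 CPM (40.2 to 136) in the control IgG members, with a UMI in 4 of 10, and at 25.4 CPM (16.7 to 36.9) in the anti-CD3L1 members, with a UMI in 13 of 88. In cDC1 of the same library it stood at 233 CPM, with a UMI in 92 of 103 cells. At least 1 of Zbtb46, Btla and Tbc1d4 was seen in 8 of 10 and in 64 of 88 members, and all 3 in 1 and in 7. Of the markers of other lineages, the 5 T cell genes summed to 0 and 11.3 CPM, the 8 NK cell genes to 13 and 56.4, the 6 stromal genes to 25.9 and 53.6 and the 7 B cell genes to 90.8 and 85.5, nearly all of it Ighm (90.8 and 77.1 CPM) with Cd79a, Ms4a1 and Pax5 at 0 in both libraries. All 5 basophil and mast cell genes were at 0 in both. The 10 neutrophil genes summed to 662 CPM in the control IgG members and 132 CPM in the anti-CD3L1 members, mainly S100a8 and S100a9, which the rule limits, with Ly6g, Camp and Ngp at 0. Lists of related lineages were not low: the 12 monocyte genes summed to 3821 and 3214 CPM, beside 3231 and 3097 CPM of the 16 cDC2 genes, the 10 plasmacytoid genes to 1032 and 1338 CPM and the 12 macrophage genes to 227 and 2245 CPM. Vcan monocytes of the anti-CD3L1 library held 16878 CPM of the monocyte genes and C1q macrophages 26830 CPM of the macrophage genes.

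Before the exclusions 14 and 120 cells had both Flt3 and Cd209a. A second UMI or more of Siglech, a lectin of plasmacytoid dendritic cells, removed 4 and 26 of them, Xcr1 and Clec9a removed 1 and 8, Ccr7 with Fscn1 removed 0 and 2, and the limit on S100a8 and S100a9 removed none. Some cells met more than 1 exclusion. The 26 cells removed for Siglech in the anti-CD3L1 library had a median of 9 Siglech UMIs and carried 1952 CPM of Tcf4, 1431 CPM of Irf8 and 67.1 CPM of Clec10a, against 341, 245 and 268 CPM in the members. Tcf4 encodes the factor that specifies plasmacytoid cells, so the removed cells differed from the members in genes the rule did not read. Cd209d was closer, at 125 CPM in the removed cells and 171 CPM in the members. With a median of 9 Siglech UMIs the removed cells lay well past the limit, so these values do not describe cells at its edge.

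Just inside the rule, 6 of 10 control IgG and 48 of 88 anti-CD3L1 members had exactly 1 Flt3 UMI, and 0 and 18 had exactly 1 Cd209a UMI. Both genes at a single UMI occurred in 0 and 9 members, and 5 or more Cd209a UMIs in 6 and 31. Just outside it, 37 and 212 cells had Flt3 and no Cd209a, and 5 and 243 had Cd209a and no Flt3. After thinning to 2000 UMIs, only 31.8% of the 88 anti-CD3L1 members still showed Flt3 and 53.4% still showed Cd209a, so fewer cells meet the rule at a lower depth. As a measure of free RNA, barcodes of 100 UMIs or fewer held 11.8 CPM of Cd209a and 9.89 CPM of Flt3 in the anti-CD3L1 library, and 3 of 193 NK cells had a Cd209a UMI.

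Members made up 0.117% of kept cells (0.0561 to 0.215) in the control IgG library and 0.781% (0.627 to 0.961) in the anti-CD3L1 library, a ratio of 6.68 (3.47 to 14.4). Among cells outside the neutrophil rule they were 0.326% (0.156 to 0.598), 10 of 3070, and 0.816% (0.655 to 1.0), 88 of 10790, and the ratio was 2.50 (1.30 to 5.40). The members were a larger share of the anti-CD3L1 library on both denominators, with the gap narrower once neutrophils were set aside. Of all cells with Flt3 and under 2% of S100a8 and S100a9, a denominator chosen after the values were seen, members were 13% (6.41 to 22.6) and 13.6% (11.1 to 16.5), a ratio of 1.05 (0.543 to 2.26). The interval of that ratio lay on both sides of 1. After thinning to 2000 UMIs before the rule was applied, only 3 and 18 members remained, 0.0371% and 0.175% of the cells deep enough. The ratio was then 4.70 (1.37 to 24.9) over those cells. Outside the neutrophil rule it was 2.04 (0.595 to 10.8), an interval that held 1. A share in 1 library per group cannot be told apart from differences between the pooled tumors, the bead enrichment or the capture.

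**Figure D1:**
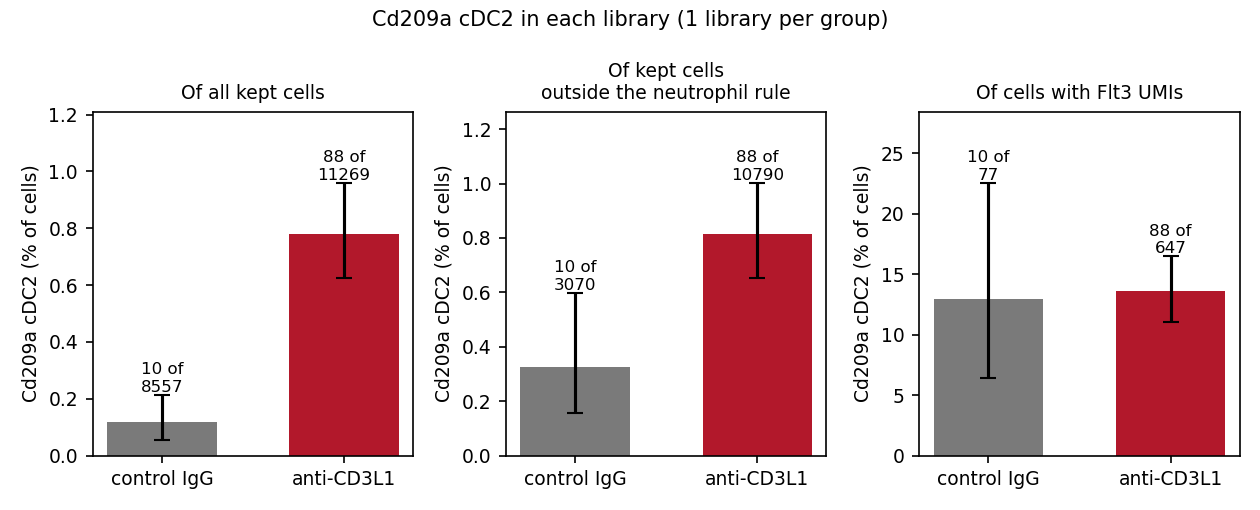
Share of Cd209a cDC2 in each library in percent, with exact binomial 95% intervals as bars, over 3 denominators (all kept cells, cells outside the neutrophil rule, Flt3 cells). The anti-CD3L1 library is higher over all kept cells (0.781% against 0.117%) and over cells outside the neutrophil rule (0.816% against 0.326%), while 13.6% and 13% of Flt3 cells overlap.

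The C-type lectin genes Cd209d, Clec10a and Mgl2 had the highest ratios of members over Flt3 cells without Cd209a in the anti-CD3L1 library. Cd209d, the neighboring paralog, stood at 247 CPM (174 to 338) in the control IgG members, with a UMI in 4 of 10, and at 171 CPM (147 to 198) in the anti-CD3L1 members, with a UMI in 30 of 88. Summed over members, its UMIs came to 0.487 and 0.423 per Cd209a UMI. These values are a description, since the rule used Cd209a and the control IgG value rests on 4 cells. Because these genes are close copies, reads could have been divided between them in counting. The median of Cd209a was 3 UMIs in members with and 3 in those without Cd209d in the anti-CD3L1 library, and 7 and 5 UMIs in the control IgG library. Of the other family genes, Cd209c stood at 6.5 and 14.1 CPM, Cd209e at 13 and 17.9, Cd209b and Cd209f each at 0 and 0.94, and Cd209g had no UMI in any member.

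Clec10a and Mgl2 encode the macrophage galactose-type lectins MGL1 and MGL2, which bind galactose and N-acetylgalactosamine. Clec10a stood at 266 CPM (191 to 361) and 268 CPM (238 to 301), with a UMI in 7 of 10 and 55 of 88 members. Mgl2 stood at 64.9 CPM (31.1 to 119) and 251 CPM (222 to 283), with a UMI in 1 of 10 and 24 of 88 members, and a single anti-CD3L1 member held 61 of the 267 UMIs. Clec10a was therefore spread over most members at the same level in both libraries, whereas Mgl2 came from fewer cells. Both lectins were seen in 20 anti-CD3L1 members and neither in 29. Clec10a was seen in the deeper members (median 11741 UMIs against 8782 in those without it).

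Cells that had Cd209a but no Flt3 shared this lectin profile in the anti-CD3L1 library, at 151 CPM of Cd209d, 219 of Clec10a and 384 of Mgl2. They differed from the members in Tbc1d4 (67.9 against 244 CPM) and Lyz2 (3038 against 960 CPM), the latter encoding the lysozyme of monocytes and macrophages. Cells that had Flt3 but no Cd209a had the reverse, with 5.1 CPM of Cd209d, 25.6 of Clec10a and 60.2 of Mgl2 beside 188 CPM of Tbc1d4.

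**Figure D2:**
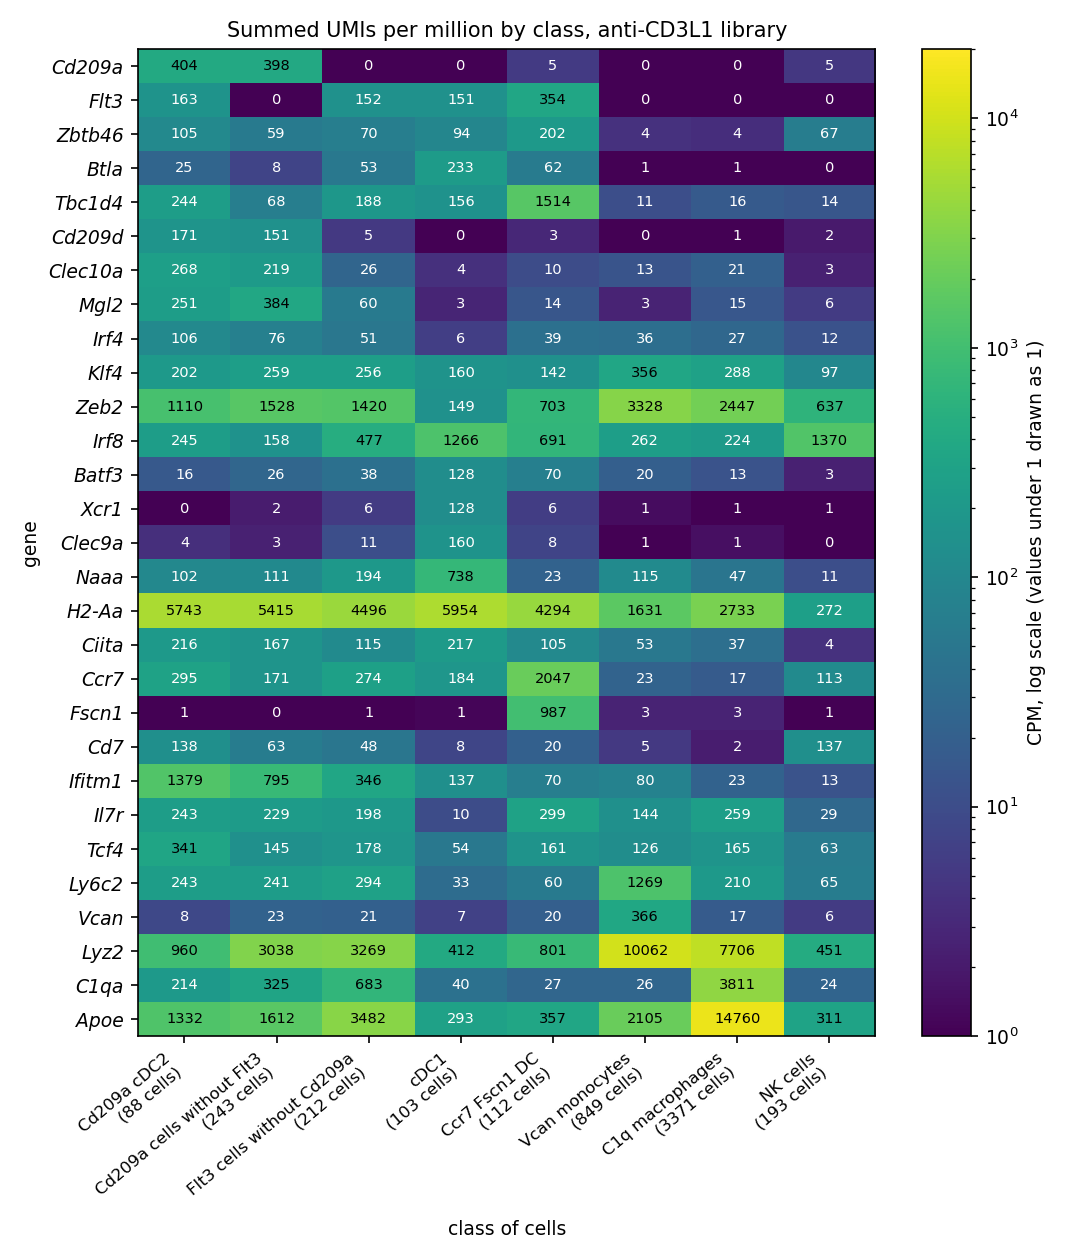
Levels in CPM (log color scale, values printed) of selected genes over 8 classes of cells in the anti-CD3L1 library. Cd209d, Clec10a and Mgl2 are high in both classes with Cd209a (171, 268 and 251 CPM in the members), Irf8, Batf3 and Naaa in cDC1, and C1qa in C1q macrophages (3811 CPM).

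Cd209a cDC2 were compared with cDC1 of the anti-CD3L1 library, the branch most like them, to ask which genes part the 2 kinds of Flt3 cell. The 103 cDC1 had at least 2 UMIs of Xcr1 and Clec9a together, Flt3 and no Cd209a. Of 1966 genes with at least 20 UMIs over both classes and 100 CPM in either, 218 (11.1%) were at least 2-fold higher in the members and 141 (7.17%) at least 2-fold lower. A gene low in one class could enter only through the other, so the counts for gene lists below describe those genes and are to be read beside these shares.

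The members were higher in lectins and cDC2 regulators and lower in cDC1 genes. Of 11 cDC2 genes measured, 7 were at least 2-fold higher and 1, Btla, was lower, with a median log2 ratio of 2.80 against 0.01 over all genes (a log2 ratio of 1 is a 2-fold difference). Mgl2 was at 251 against 2.8 CPM (log2 ratio 6.47, 5.23 to 8.11), Clec10a at 268 against 4.0 CPM (6.08, 5.02 to 7.41) and Irf4, which drives cDC2 function, at 106 against 6.2 CPM (4.09, 3.20 to 5.14). Zeb2, a repressor that favors cDC2 and plasmacytoid over cDC1 fates, was at 1110 against 149 CPM. Sirpa (2.80), Itgam (3.08) and Ltb (2.48) completed the list, and Cd209d, with no UMI in cDC1, was at least 101-fold higher. Of 6 lectins measured, 5 were higher, including Clec4n (3.90) and the mannose receptor Mrc1 (3.22), and Ly75, which encodes the endocytic receptor DEC-205, was lower (−2.17).

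Of 8 cDC1 genes measured outside the rule, 7 were at least 2-fold lower in the members, with a median of −2.77. Irf8 was at 245 against 1266 CPM (−2.37, −2.56 to −2.18) and its partner Batf3 at 16.0 against 128 CPM (−3.00, −3.81 to −2.29). Wdfy4, required for cross-presentation, was at 101 against 656 CPM, and Cadm1 (−2.62), Naaa (−2.85), Rab7b (−2.83) and the integrin gene Itgae (−3.31) followed. Among transcription factors, 4 of 14 were higher (Irf4, Zeb2, Tcf4 at 2.67 and Cebpb at 1.26) and 3 were lower (Irf8, Batf3 and Id2 at −1.98). Id2 and Cd24a (−2.64) were the 2 conventional dendritic cell genes of 7 that were lower, and none was higher. Of 4 plasmacytoid genes, Tcf4 and Runx2 (2.36) were higher.

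Cell cycle genes were lower in the members than in cDC1. All 3 measured were lower, with Mki67 at 31.0 against 118 CPM, Stmn1 at −3.02 and Top2a at −3.54, and the replication-linked histone genes Hist1h1b (−5.55), Hist1h2ap (−4.64) and Hist1h2ae (−4.22) and Pclaf (−5.03) were among the 10 genes with the lowest ratios. The others were Ccser1 (no UMI in members, a bound of −5.64), Plpp1 (−4.80), Mctp1 (−3.88), Cxcl9 (−3.73) and Il12b (−3.58), a subunit of interleukin 12 whose 12 UMIs came from 1 member. On the other side stood Il7r (4.58), Tmem176a (4.33) and Tmem176b (3.94), Cd7 (4.13), S100a4 (4.08) and Ccl8 (4.05), the last from 7 members. Cd7 and Ifitm1 were widespread, with a UMI of Cd7 in 43 and of Ifitm1 in 71 of 88 members.

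Antigen presentation genes differed in part between the 2 branches. Of 11 MHC class II pathway genes, the lysosomal enzyme genes Ctss (1.38), Lgmn (1.29) and Ifi30 (1.19) were higher and none was lower, and H2-Aa was at 5743 against 5954 CPM and Cd74 at the same level (log2 ratio 0.00, −0.03 to 0.03). Of 8 MHC class I genes, the immunoproteasome subunits Psmb8 (−1.12) and Psmb9 (−1.57) were lower. Of 6 costimulatory and checkpoint genes, Btla and Havcr2 (−1.30) were lower, while Cd86 was at 662 against 595 CPM. Mature dendritic cell genes had 1 higher (Samsn1, 1.62) and 1 lower (Il12b) of 8. Of 9 chemokine ligands, Ccl8, Ccl9 (2.66), Ccl6 (1.60), Cxcl2 (1.17) and Cxcl10 (1.01) were higher and Cxcl9, a ligand of CXCR3, was lower. Tgfb1 (1.40) was higher of 4 cytokines with Il12b lower, and Il4ra (1.24) and Il1r2 (1.17) of 10 cytokine and growth factor receptors. None of 3 innate sensors, 1 of 7 interferon-stimulated genes (Cxcl10, higher) and 1 of 10 dissociation stress genes (Fos, −1.15) passed 2-fold. Of the genes the study had followed, Nrp2, encoding a semaphorin co-receptor, was at 110 against 19.8 CPM and Sema4d at 148 against 62.1, both higher.

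Genes of mononuclear phagocytes were also higher in the members than in cDC1: 4 of 5 monocyte genes (Ly6c2 2.89, Cd14 2.42, Lyz2 1.22 and Plac8 1.09) and 5 of 6 macrophage genes (C1qa 2.42, C1qb 1.85, C1qc 2.52, Apoe 2.19 and Ms4a7 2.66). The C1q part rested on few cells. Of 511 UMIs of C1qa, C1qb and C1qc in the 88 members, 9 members held 89.8%, 1 of them 162, and 41 members had none. Apoe stood at 9455 CPM in the 8 members that had 3 or more C1q UMIs and at 202 CPM in the other 80. Barcodes of 100 UMIs or fewer held 1546 CPM of C1qa and 8764 CPM of Apoe in this library, and C1qa was seen in 36.4% of members and 23.3% of NK cells. The rule for NK cells allowed at most 2 UMIs of C1qa, C1qb and C1qc together, and the members had no such limit. The share in NK cells is therefore held down by their rule. The part of free RNA or of doublets with macrophages in these values was not tested.

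**Figure D3:**
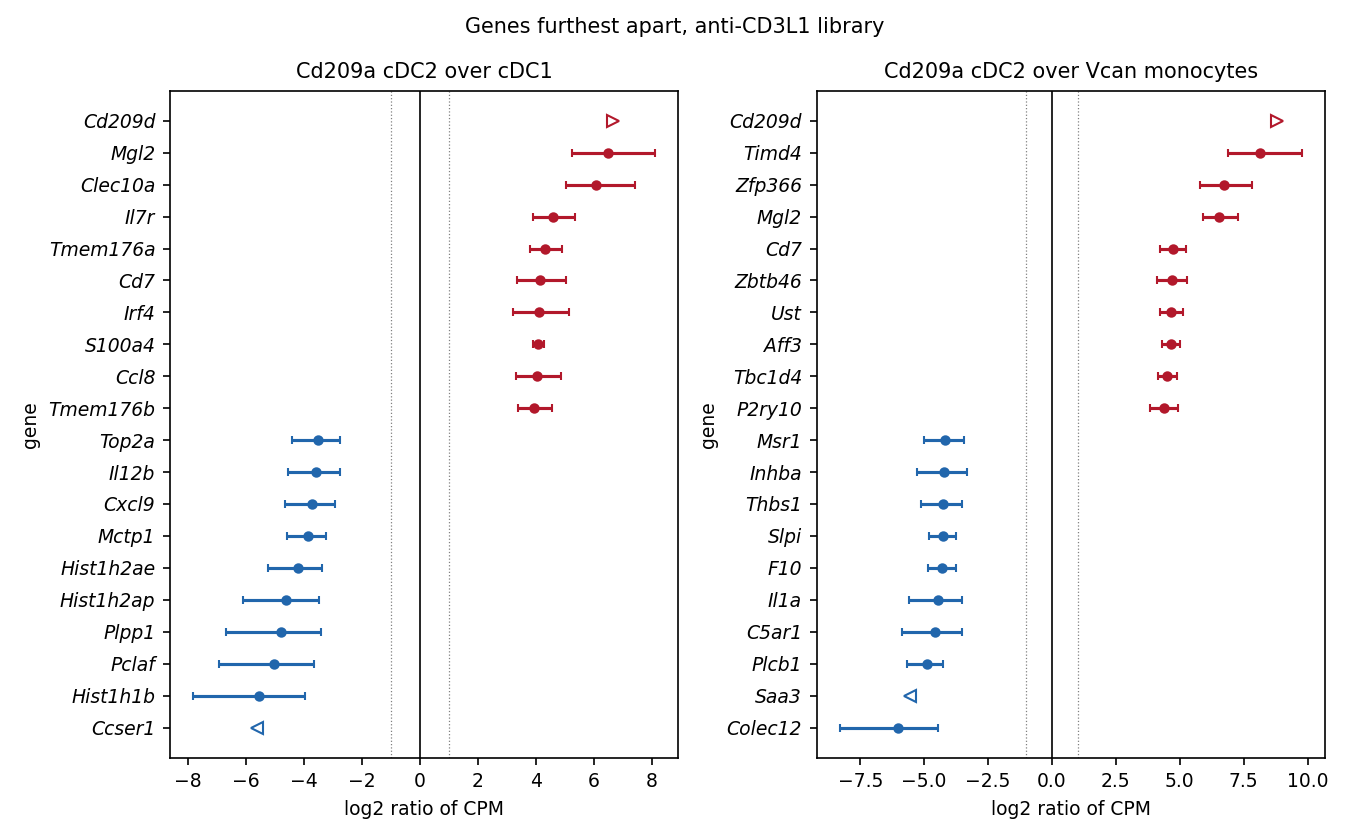
Log2 ratios of CPM in the anti-CD3L1 library for the 10 highest and 10 lowest genes of Cd209a cDC2 against cDC1 and against Vcan monocytes, with exact 95% counting intervals as bars. Against cDC1 the lectins Mgl2 (6.47) and Clec10a (6.08) lead with Cd209d, and against the monocytes Timd4 (8.13) and Zfp366 (6.72) stand beside them.

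Cd209a is also carried by cells that derive from monocytes, so the members were set against 849 Vcan monocytes of the same library. These had Ly6c2 and Vcan, no Flt3 or Cd209a, and at most 2 UMIs of C1qa, C1qb and C1qc together. Of 2046 genes, 146 (7.14%) were at least 2-fold higher in the members and 298 (14.6%) at least 2-fold lower, so higher genes were 32.9% of those called. With mitochondrial, ribosomal, S100a8 and S100a9 UMIs left out of the totals, 223 of 2376 genes were higher and 290 lower. Higher genes were then 43.5% of those called, and the median log2 ratio moved to 0.10.

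The members carried more MHC class II than the monocytes. Of 11 pathway genes, 8 were at least 2-fold higher and none lower, with a median of 1.82 against −0.01 over all genes. H2-Ab1 was at 5352 against 1340.4 CPM (2.0, 1.95 to 2.04), H2-Eb1 at 4232 against 946 CPM (2.16, 2.11 to 2.22), and Ciita, the transactivator of these genes, at 216 against 52.9 CPM (2.03, 1.79 to 2.27). H2-DMb1 (2.07) and H2-DMb2 (2.39), which load peptide, were higher as well. Of 8 MHC class I genes none passed 2-fold. Cd80, a ligand of CD28, was at 206 against 71.7 CPM (1.52, 1.29 to 1.75) and was higher of 7 costimulatory genes, with Vsir (−1.41) and Lgals9 (−1.49) lower.

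Some dendritic cell genes were higher in the members too. Zbtb46 was at 105 against 4.1 CPM (4.68) and Tbc1d4 at 244 against 10.8 CPM (4.50). Timd4, which encodes a phosphatidylserine receptor, was at 179 against 0.642 CPM (8.13), Zfp366, which encodes the dendritic cell factor DC-SCRIPT, followed at 6.72, and Cd209d, with no UMI in the monocytes, was higher by at least 8.80 on the log2 scale. Mgl2 (6.54), Cd7 (4.71), Ust (4.67), Aff3 (4.66) and P2ry10 (4.37) made up the rest of the 10 highest. The list of 10 cDC2 genes was divided, since Irf4 (1.57), Clec10a (4.33), Ltb (1.46), Mgl2 and Tbc1d4 were higher while Sirpa (−1.21), Itgam (−1.16), Notch2 (−1.18) and Zeb2 (−1.58) were lower. Of 5 conventional dendritic cell genes Zbtb46 and Ciita were higher and Id2 (−1.45) lower, and of 5 cDC1 genes Rab7b (−1.77) was lower.

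Monocyte and inflammatory genes were lower in the members. Of 8 monocyte genes outside the rules, 6 were lower and none higher: Lyz2 was at 960 against 10062 CPM (−3.39, −3.48 to −3.30), with Fn1 (−2.56), F13a1 (−2.99), Csf1r (−2.01), Fcgr1 (−2.0) and Cd14 (−1.72). The macrophage genes Adgre1 (−2.32) and Cd68 (−1.06) were lower, as was the 1 neutrophil gene measured, Csf3r (−2.56). Of 6 cytokines, 5 were lower: Il1b at 858 against 2722 CPM (−1.67), Il1a (−4.44), Il10 (−3.07), Osm (−3.04) and Tnf (−2.31). Of 12 chemokine ligands, 9 were lower, led by Cxcl1 (−3.27), Cxcl9 (−3.10) and Cxcl2 (−2.97), and Ccl8 (3.27) alone was higher.

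The same direction held for 6 of 9 interferon-stimulated genes, among them Rsad2 (−2.11) and Isg15 (−1.27), for 6 of 11 lectins, among them Clec4e (−3.55) and Clec4d (−2.74), which encode receptors for fungal and mycobacterial glycolipids, for Tlr2 (−1.88) and Nlrp3 (−1.58) of 4 innate sensors and for 4 of 10 stress genes. Ccr1 (−1.34) was lower of 3 chemokine receptors, Il1r2 (2.10), a decoy receptor of interleukin 1, higher and Csf1r lower of 13 cytokine receptors. Among transcription factors Irf4, Tcf4 (1.44) and Zbtb46 were higher and Zeb2, Id2 and Cebpb (−2.77) lower. Nrp2 was lower here (−1.37). Of 7 mature dendritic cell genes Tmem123 (1.36) and Samsn1 (1.11) were higher and Marcksl1 (−1.92) lower, and of 4 plasmacytoid genes Tcf4 and Runx2 (1.18) were higher and Irf7 (−1.15) lower. The remaining genes with the lowest ratios were Colec12 (−6.02), Saa3 (no UMI in members, a bound of −5.53), Plcb1 (−4.90), C5ar1 (−4.56), F10 (−4.29), Slpi (−4.26), Thbs1 (−4.26), Inhba (−4.22) and Msr1 (−4.18).

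The 212 cells of the anti-CD3L1 library that met every other condition but had no Cd209a UMI were the nearest cells outside the rule. Only 19 of 1907 genes (0.996%) were at least 2-fold higher in the members and 57 (2.99%) at least 2-fold lower. The higher genes were led by the lectins Cd209d (171 against 5.1 CPM, 5.06), Clec10a (3.38) and Mgl2 (2.06), followed by Ifitm1 (1379 against 346 CPM, 2.0), Cd7 (1.51), Immp2l (1.48), Trappc5 (1.41), Rin3 (1.38), Cfp (1.30) and Fcgrt (1.22). Irf4 was at 106 against 50.8 CPM (1.06, 0.67 to 1.46) and Ltb at 123 against 55.5 (1.15, 0.78 to 1.52), so 4 of 10 cDC2 genes were higher and none was lower. Zbtb46 (0.59) and Tbc1d4 (0.38) differed by less than 2-fold.

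The cells without Cd209a held more of other lineages' genes. Of 7 macrophage genes, 6 were lower in the members, with a median of −1.63 against 0.02 over all genes, among them C1qb (−1.68), C1qa (−1.67), Ms4a7 (−1.63), C1qc (−1.54) and Apoe (−1.39). Their whole macrophage list summed to 6119 CPM, against 2245 CPM in the members. Rab7b (−1.70), Cadm1 (−1.56) and Wdfy4 (−1.07) were lower of 6 cDC1 genes, and Lyz2 (−1.77) of 8 monocyte genes. Ccl17 (−3.10), Cxcl9 (−3.07), Cxcl1 (−2.42) and Cxcl2 (−1.58) were lower of 12 chemokine ligands, Tnf (−1.43) of 3 cytokines, and Clec4e (−1.47) of 8 lectins. The transcription factor genes Id2 (−1.51) and Cebpb (−1.13) were lower, and of 14 such genes only Irf4 was higher. Airn (−2.78), Il1rn (−2.41), Slpi (−2.28), F10 (−2.11), Spp1 (−1.93) and C3ar1 (−1.92) were also among the 10 lowest. None of 11 MHC class II, 8 MHC class I, 5 costimulatory, 2 chemokine receptor, 12 cytokine receptor, 3 sensor, 7 interferon-stimulated, 10 stress, 4 plasmacytoid or 2 study genes passed 2-fold.

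The members were not uniform. In the anti-CD3L1 library they were divided by their Cd209a UMIs into 18 cells with 1, 39 with 2 to 4 and 31 with 5 or more, whose median depths were 8527, 11300 and 10952 UMIs. The summed MHC class II genes stood at 20998 CPM (20334 to 21678), 28541 CPM (28070 to 29019) and 34732 CPM (34153 to 35318) in this order. Clec10a stood at 105, 247 and 367 CPM, and Ccr7, the receptor for migration to lymph nodes that the rule limits only together with Fscn1, at 128, 268 and 405 CPM. In that library Tcf4 ran the other way, at 760, 350 and 139 CPM, as did the plasmacytoid genes summed (2364, 1257 and 970 CPM), Ly6c2 (544, 233 and 119 CPM) and Lyz2 (1537, 953 and 707 CPM). None of the intervals of the lowest and the highest Cd209a group overlapped for these 7 measures, and they cover counting error within 1 library. Cd209d stood at 172, 186 and 152 CPM.

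The control IgG members, 4 with 2 to 4 and 6 with 5 or more Cd209a UMIs, were alike in some of these measures and not in others. Clec10a stood at 120 CPM (44.1 to 261) and 336 CPM (234 to 467), Ccr7 at 100.04 CPM (32.5 to 233) and 403 CPM (291 to 545) and Lyz2 at 2441 CPM (2027 to 2915) and 950.4 CPM (772 to 1157), in the same order as under anti-CD3L1. Tcf4 had the opposite order, at 180.1 CPM (82.3 to 342) and 442 CPM (323 to 589). Cd209d, level under anti-CD3L1, stood at 20 CPM (0.507 to 111) and 355 CPM (250.1 to 489.6).

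**Figure D4:**
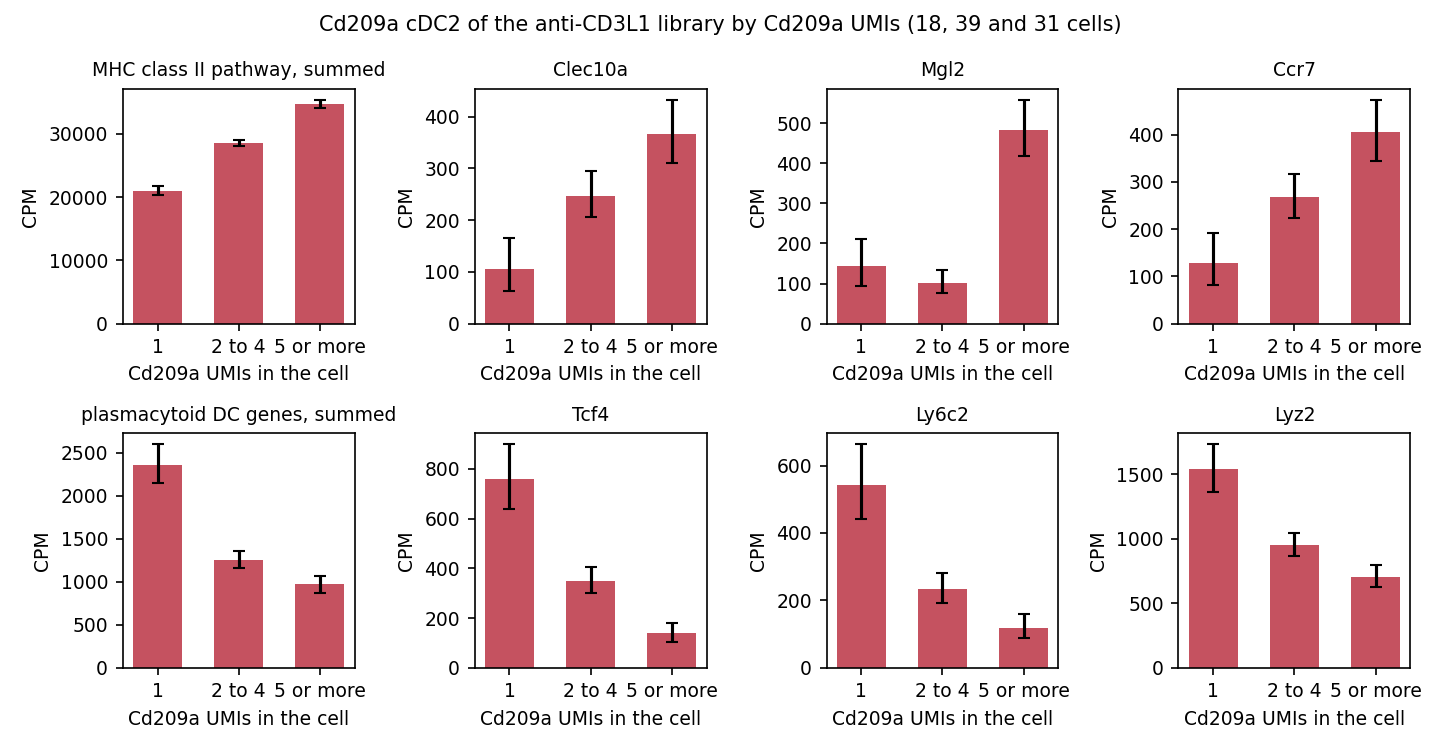
Levels in CPM, with exact Poisson 95% intervals as bars, in anti-CD3L1 members with 1, 2 to 4, and 5 or more Cd209a UMIs (18, 39 and 31 cells). MHC class II, Clec10a and Ccr7 are higher and Tcf4, Ly6c2 and Lyz2 lower in cells with more Cd209a, while Mgl2 is at 144, 102 and 484 CPM.

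Other splits showed fewer contrasts. The 40 anti-CD3L1 members with 2 or more Flt3 UMIs had 460 CPM of Tcf4 and 323 CPM of Tbc1d4, against 226 and 168 CPM in the 48 with 1 Flt3 UMI, and less Lyz2 (563 against 1346 CPM). Cycling members, with 2 or more UMIs of 5 proliferation genes, numbered 14 of 88 and 2 of 10. In the anti-CD3L1 library they had 539 CPM of Tbc1d4 and 641 CPM of Ccr7, against 169 and 207 CPM in the others. The 15 cell cycle genes summed to 208 CPM in the control IgG members and 204 CPM in the anti-CD3L1 members.

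The comparison the design implies is between the libraries, and here 10 cells stand against 88. Of 2007 genes, 118 (5.88%) were at least 2-fold higher in the anti-CD3L1 members and 131 (6.53%) at least 2-fold lower, with a median log2 ratio of −0.02 over all genes. The higher genes were seen in a median of 57 of 88 anti-CD3L1 members and the lower genes in a median of 6 of 10 control IgG members. Each gene was counted in the library where it was higher, and the minimum of 100 CPM favors genes seen in many cells there. Only 1 or 2 members held 8 of the 131 lower genes and 0 of the 118 higher genes. The ratio between libraries was also taken in NK cells, Vcan monocytes and C1q macrophages of the same 2 libraries. It is given below for some genes, and the other differences stand without it.

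Some markers stood close between the libraries and others did not. Clec10a (0.01, −0.47 to 0.52), Tbc1d4 (0.07, −0.44 to 0.61), Irf4 (0.13, −0.66 to 1.01), Zeb2 (0.03, −0.21 to 0.27), Tcf4 (−0.06, −0.48 to 0.37) and Cd209d (−0.53, −1.04 to 0.02) had intervals that held 0. Zbtb46 was higher by 1.02 (−0.01 to 2.27), with 8 UMIs in the control IgG members, and Btla stood at 77.8 CPM (40.2 to 136) under control IgG and 25.4 CPM (16.7 to 36.9) under anti-CD3L1. Of 10 cDC2 genes, Mgl2 (1.95, 1.05 to 3.03) and Klf4 (202 against 77.8 CPM, 1.38, 0.54 to 2.35) were higher and Itgam, the integrin CD11b, was lower (101 against 337 CPM, −1.75, −2.24 to −1.24). Mgl2 was seen in only 1 control IgG member and in 24 anti-CD3L1 members, so its ratio rests on few cells. Free RNA differed in the same direction for these 3 genes. Barcodes of 100 UMIs or fewer held 74.6 CPM of Klf4 under control IgG and 207 CPM under anti-CD3L1. In the same order they held 1.36 and 23.9 CPM of Mgl2 and 234 and 114 CPM of Itgam. The part of free RNA in these ratios was not tested. Of 7 conventional dendritic cell genes, Zbtb46 was higher and Bcl11a (−1.43) lower.

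The MHC class II genes summed to 41688 CPM under control IgG and 29560 CPM under anti-CD3L1, and none of 11 differed by 2-fold (median −0.41). H2-Aa was at 8427 CPM under control IgG and 5743 CPM under anti-CD3L1 (−0.55, −0.64 to −0.47) and Cd74 at 14045 and 10559 CPM (−0.41, −0.48 to −0.34). In the other cells the ratio of H2-Aa was above 0, at 1.85 in NK cells, 1.83 in Vcan monocytes and 0.58 in C1q macrophages. Free RNA differed in the same direction. In barcodes of 100 UMIs or fewer, H2-Aa was at 456 CPM under control IgG and 2268 CPM under anti-CD3L1. How far free RNA entered the ratios of H2-Aa was not tested. None of 8 MHC class I genes (median 0.07), 7 interferon-stimulated genes (0.50), 4 plasmacytoid genes (0.49) or 3 chemokine receptors (0.25) passed 2-fold. Tnfsf9 (−1.67) was lower of 6 costimulatory genes, Ifih1 (−1.19) of 4 sensors, Lifr (−1.87) of 14 cytokine receptors and Hspa1b (−1.20) of 10 stress genes.

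Of 3 cytokines 1 was lower in the anti-CD3L1 members and 1, Tgfb1, was higher. Il1b was at 2413 CPM under control IgG and 858 CPM under anti-CD3L1 (−1.49, −1.67 to −1.31), beside −0.97 in Vcan monocytes and −0.76 in C1q macrophages. Clec4e (−2.05), Clec4a1 (−1.47), Cebpb (−1.30), Ccl5 (−1.41) and Bcl6 (−1.01) were lower as well, as were Il4i1 (−1.58), Birc3 (−1.15) and Marcksl1 (−1.03) among 8 mature dendritic cell genes, none of which was higher. Barcodes of 100 UMIs or fewer held 4913 CPM of Il1b under control IgG and 1506 CPM under anti-CD3L1. In them Clec4e, Cebpb, Bcl6, Birc3 and Marcksl1 were also lower under anti-CD3L1, while Clec4a1, Ccl5 and Il4i1 were higher. The part of free RNA in these ratios was not tested. Of 9 chemokine ligands 3 were higher (Ccl4 at 1.76, Ccl6 at 2.70 and Ccl8) and 2 lower (Ccl5 and Cxcl1). Also higher were Tgfb1 (378 against 136 CPM, 1.47, 0.84 to 2.18), Naaa (1.17) and Sema4d (1.19), the last beside Nrp2, which was lower (110 against 221 CPM, −1.0, −1.57 to −0.41). In barcodes of 100 UMIs or fewer, Tgfb1 was at 157 CPM under control IgG and 331 CPM under anti-CD3L1, and Naaa at 24.9 and 69.7. There Sema4d (267 and 159 CPM) and Nrp2 (133 and 153 CPM) went the other way from the members. Itpripl1, which encodes the target of the antibody, stood at 13 and 17.9 CPM and was too low for the comparison.

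Irf8 was furthest apart among the listed dendritic cell genes. It had 3 UMIs in the 10 control IgG members (19.5 CPM), in 3 cells, and stood at 245 CPM in the anti-CD3L1 members, in 53 of 88 (log2 ratio 3.66, 2.09 to 5.94). The ratio in Vcan monocytes was 1.36, in C1q macrophages 0.38 and in NK cells −0.27. Ly6c2 (2.91, 1.65 to 4.54) was higher and was the 1 gene of 7 monocyte genes past 2-fold. Tent5c (3.19) was seen in 2 of 10 and 47 of 88 members. Ly6a, with no UMI in control IgG members and 1 or more in 42 anti-CD3L1 members, was higher by at least 3.32, beside 3.11 in C1q macrophages. Free RNA differed in the same direction for these genes. Barcodes of 100 UMIs or fewer held 91.6 CPM of Irf8 under control IgG and 315 CPM under anti-CD3L1. In the same order they held 116 and 376 CPM of Ly6c2, 46.0 and 111 of Tent5c and 9.29 and 166 of Ly6a. The part of free RNA in these ratios was not tested.

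Macrophage genes showed the largest ratio, and their cells and surroundings moved with it. Of 6 measured, 5 were higher with a median of 3.03: Apoe was at 13 CPM, from 2 UMIs, and 1332 CPM (6.68, 4.83 to 9.73), and C1qa, C1qb and C1qc, absent from all 10 control IgG members, were higher by at least 3.46, 3.06 and 2.41. Ms4a7 (2.99) and Spp1 (at least 3.15) followed. Without the 8 members that had 3 or more C1q UMIs, the ratio of Apoe was 3.96. In barcodes of 100 UMIs or fewer, Apoe was at 2802 CPM in the control IgG and 8764 CPM in the anti-CD3L1 library and C1qa at 414 and 1546 CPM, and C1q macrophages numbered 369 and 3371. The whole macrophage list of 12 genes summed to 227 and 2245 CPM in the members, with C1qa, C1qb, C1qc, Mertk and Pf4 at 0 under control IgG. The part of these cells or of free RNA in the result was not tested. Ccl8 (4.61) came from 1 and 7 members.

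Of the 10 lowest ratios, 6 came from 1 or 2 control IgG cells. The 21 UMIs of Epha4 (−7.18) were in 1 cell, those of Slc7a2 (−5.85), Zranb3 (−4.07), Zfp944 (−4.01) and Mmp12 (−3.27) in 2 each, and the 145 UMIs of Cxcl1 (−3.59) in 2. Mpp7 (−6.82, in 6 of 10 cells) and AI662270 (−3.37, in all 10) were also low in the other classes, at −4.93 and −2.31 in NK cells, −8.11 and −2.70 in Vcan monocytes and −7.06 and −2.64 in C1q macrophages, so they set the libraries apart in other cells too. Dmkn (−2.98, in 6 of 10) and Cyp7b1 (−2.81, in 3 of 10) complete the list.

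**Figure D5:**
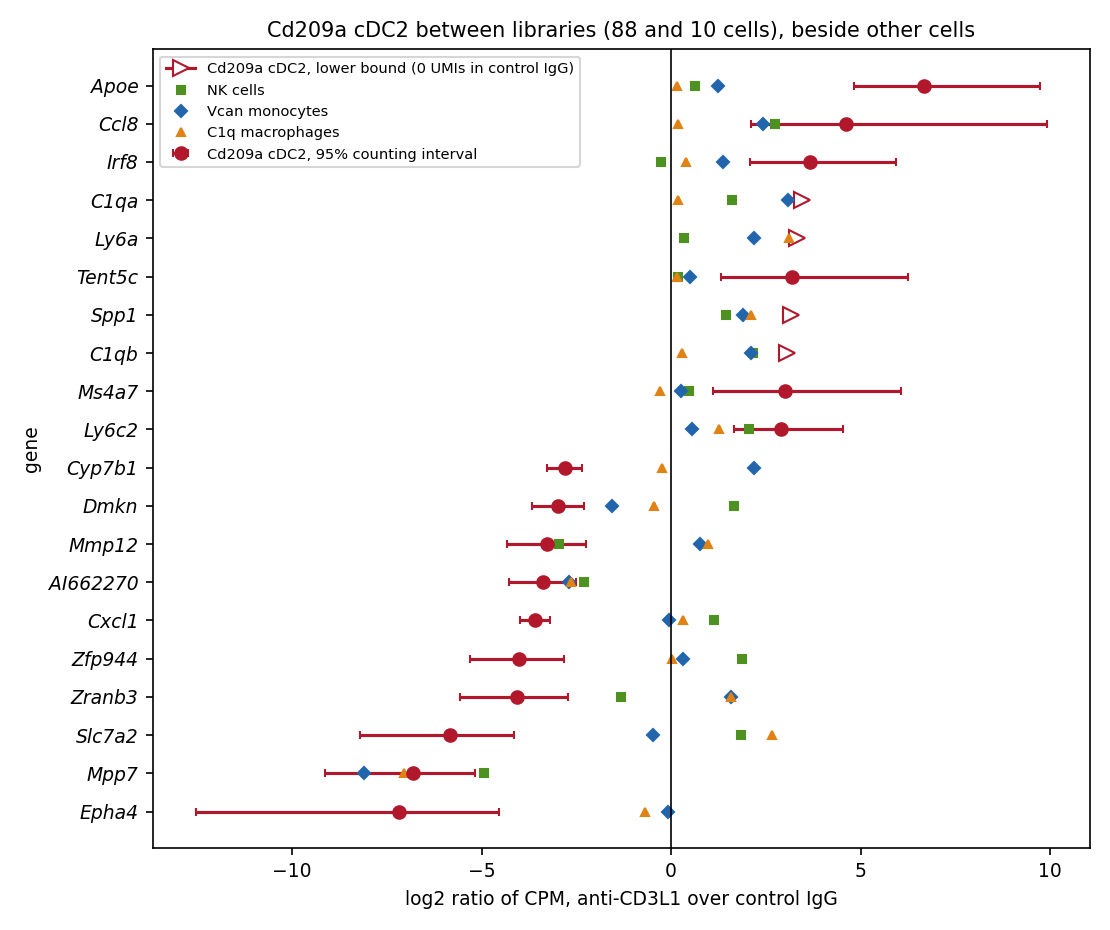
Log2 ratios of CPM, anti-CD3L1 over control IgG, for the 10 highest and 10 lowest genes in Cd209a cDC2 (circles with exact 95% counting intervals, open triangles for lower bounds), with NK cells, Vcan monocytes and C1q macrophages as small points where a ratio could be taken. Irf8 lies at 3.66 in the members and at 1.36 or below in the other classes, while Mpp7 and AI662270 are low in all 4.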

How the data were processed

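The 2 processed matrices, which the authors deposited as UMI counts per gene and barcode without normalization, came from 10x Genomics libraries of CD45+ cells, 1 library of 3 pooled tumors per group. The submitters' processing notes name Cell Ranger 7.1.0, Seurat 5.1.0 and the build GRCm39. The authors' filters (over 200 and under 6000 genes, under 5% mitochondrial counts) were kept with a minimum of 500 UMIs, and their integration was not repeated. A deposited table of macrophage genes holds the authors' own fold changes, shares of cells and p-values over cells and was not used.

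Classes were set by UMI rules, not by clusters. The members and gene lists (28 lists, 306 different genes, 4 not in the files) were chosen with earlier results of these data known. Counts were summed per class and library and scaled to 1000000 UMIs (CPM). With 1 library per group there was no test, and "called" means a ratio of 2 or more either way among genes with at least 20 UMIs over both groups and 100 CPM in 1. Intervals are exact Poisson for levels, exact binomial (Clopper-Pearson) for shares and ratios. Genes named were the markers and rule genes, all Cd209 genes, the 10 highest and 10 lowest ratios of each comparison (mitochondrial, ribosomal and unnamed genes left out), and from each list the most abundant members and those past 2-fold. Cells were thinned to 2000 UMIs with a fixed seed. Doublets were scored with Scrublet in scanpy 1.11.5, and the automatic threshold marked 0 of 8557 and 108 of 11269 cells, so scores were used only to leave out the highest 586 and 1016 cells as an alternative; 0 and 9 members were among these. Counts were simulated for the comparison between libraries with counting error alone (2012 genes, 200 of them changed 3-fold). Of changed genes 97.5% and of unchanged genes 1.38% passed 2-fold. Variation between cells, tumors or libraries was not simulated, so these shares are not error rates for the real comparison. Python 3.11.15, numpy 2.4.6, scipy 1.17.1, pandas 2.3.3 and matplotlib 3.10.9 were used. Some results are not reported here.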

Additional observations from a re-analysis of the deposited data

How the results depend on the processing

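Single genes were recomputed only for the 10 highest and 10 lowest ratios of each comparison. None of these reversed its direction under an alternative run in which it was measured. Of recomputed shares and gene counts 107 stayed within their limits and 28 moved. Of the recomputed ratios of these single genes 631 stayed and 73 moved. The ratio of Irf8 between libraries ran from 3.06 to 4.24. The shares moved with the depth asked of the rule genes. With at least 2 Cd209a UMIs the anti-CD3L1 members were 0.621% of kept cells, 0.649% of cells outside the neutrophil rule and 10.8% of Flt3 cells, against 13% of Flt3 cells under control IgG, a ratio of 0.833 (0.427 to 1.81) in place of 1.05. With at least 2 Flt3 UMIs they were 0.0467% (control IgG) and 0.355% of kept cells, 0.130% and 0.371% outside neutrophils and 5.19% and 6.18% of Flt3 cells. Thinned to 2000 UMIs they were 0.0371% and 0.175%, 0.0882% and 0.180%, and 12% and 7.73% of Flt3 cells, a ratio of 0.644 (0.188 to 3.41). The ratio among Flt3 cells thus lay on either side of 1. Without the minimum of 100 CPM, 919 of 6198 genes were higher and 369 lower between libraries (118 and 131 of 2007 with it). Against cDC1, 924 of 8464 were higher and 861 lower (218 and 141 of 1966 with it). Against Vcan monocytes these counts were 1066 and 1352 of 10610 (146 and 298 of 2046 with it). Against Flt3 cells without Cd209a they were 227 and 692 of 8978 (19 and 57 of 1907 with it). Many more genes were measured without the minimum, so the counts are to be read beside these totals. With at least 2 Flt3 UMIs, 215 of 2108 were higher and 287 lower between libraries, and 37 of 1951 were higher against Flt3 cells without Cd209a. In that last comparison 88 of 1907 were lower by the mean of single-cell CPM. There 89 of 1925 were lower without the C1q members, a choice made after the data were seen. Without mitochondrial, ribosomal, S100a8 and S100a9 UMIs 223 of 2376 were higher against Vcan monocytes, and 176 of 2380 higher and 166 lower between libraries. The cause of these shifts was not tested. With 10 control IgG members, ratios that rest on few UMIs there have wide intervals. No paired analysis was possible because each group is 1 library.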
